A study of Homo sapiens with 4 samples.

Results

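The core of Polycomb repressive complex 1 (PRC1) is a RING finger pair, 1 of RING1 and RNF2 joined to 1 of the PCGF proteins, and the genes of these subunits were examined here in multiple myeloma cells: PCGF1, PCGF2, PCGF3, BMI1 (also called PCGF4), PCGF5, PCGF6, RING1 and RNF2. All peaks that overlapped the body of one of these 8 genes, or the 10 kb on either side of it, were taken. They numbered 88 in the 4 peak lists together and merged into 25 regions, of 73729 regions in all. Of the 25 regions, 21 had a peak in all 4 libraries and 4 had a peak in 1 library only. Of all regions, of every kind, 48.5% were in all 4. Among the 25, 8 lay on listed starts of these genes, 7 on starts of other genes only and 10 on no listed start.

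PRC1 attaches ubiquitin to histone H2A and, with Polycomb repressive complex 2 (PRC2), the methylase of histone H3, keeps developmental genes silent. RING1 and RNF2 (RING1B) carry the ligase activity, and the PCGF partner decides which form of the complex is built. BMI1 and PCGF2 (MEL18) are closely related and form canonical PRC1 with chromobox (CBX) and polyhomeotic (PHC) proteins, which read the mark set by PRC2. PCGF1, PCGF3, PCGF5 and PCGF6 form variant complexes that contain RYBP or YAF2 in place of a CBX protein. BMI1 is best known for sustaining the self-renewal of blood stem cells and for repressing cell cycle inhibitor genes.

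AMO1, a human myeloma line of plasma cell origin, was assayed by ATAC-seq, which maps open chromatin through the insertions of Tn5 transposase. There were 4 libraries with 1 per group: PHF19 overexpression (transfected with PHF19 plasmids; the protein is a Polycomb-like cofactor of PRC2), empty vector (genotype labelled WT, transfected with the empty PCDH vector), and an IFN PHF19 overexpression and an IFN empty vector library with the same genotypes and vectors. The prefix IFN stands in the titles and is not explained by the labels, nor do these say whether the transfected cells were clonal. With no replicate, no difference was tested, and intervals cover counting error only.

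The lists rested on 18.2, 27.4, 16.4 and 65.9 M (mega) fragments in that order of groups, and the header of the IFN empty vector library names another project folder than the other 3. A peak's height is the number of fragments covering its tallest summit per M fragments of the library, and the lowest called peaks had 0.439, 0.365, 0.489 and 0.243 fragments per M. A narrow peak inside PHF19 was called in both overexpression libraries (7.9 and 7.33 fragments per M) and in neither empty vector library. All 6 plasma cell markers with a listed start (IRF4, PRDM1, XBP1, SDC1, CD38 and MZB1) had a peak there in all 4 libraries, as did BCL6 among the B cell genes. The B cell factor PAX5, 3 T cell markers and 3 myeloid markers had none in any library.

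Of the 8 genes, 7 had a peak over a listed start in all 4 libraries, against 58.5% of the 15812 protein-coding genes with a listed start (62.4% had one in at least 1 library). PCGF2 was the exception. Its minus-strand start at 38746628 on chromosome 17 lay 4945 bp from the nearest region, and no library had a peak anywhere in the gene body (chr17:38733898-38749792). The peaks of its window stood at neighbouring genes. One covered the start of CISD3, an iron-sulphur protein gene, and the other, 1781 bp beyond the upstream end of PCGF2, the start of the proteasome subunit gene PSMB3.

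The starts differed in their sequence in a way the choice of genes did not use. In the window from 250 bp before to 50 bp after it, the PCGF2 start had 2 CpG dinucleotides, and 6.03% of 22132 protein-coding start windows had fewer. Of the starts with 0 to 4 CpG, 5.97% had a peak in all 4 libraries. The listed starts of RNF2, RING1, PCGF3, BMI1 and PCGF6 had 41, 41, 38, 36 and 28 CpG, and 77.9%, 77.4% and 72.2% of starts with 25 to 29, 30 to 39 and at least 40 CpG had a peak in all 4 libraries. The upstream PCGF5 starts had 55 and 52 CpG and the later internal one 35, while the internal start at 91220151, with 5 CpG, was covered by a peak in 1 library. PCGF1 was the open start with the fewest, 14 CpG, a class (10 to 14) in which 37.5% were open in all 4. A high CpG content did not go with a peak everywhere: the other listed start of BMI1, at 22321956 on chromosome 10, had 65 CpG and no peak in any library. Its window was 91% G or C, and it lay 373 bp from the region over the open BMI1 start. The start of PCGF2 at the upper end of the gene body is not in the table of starts, and its sequence was not analysed here. The 250 bases before the start of PCGF2 stand here beside those of the tallest start, PCGF1, of the one with the widest differences, PCGF3, and of BMI1 and RNF2, the closest relative of PCGF2 and the main ligase. Each runs 5′ to 3′ from RefSeq (GRCh38.p14), with matches to the searched motifs in capitals.
PCGF2 promoter, chr17:38746629-38746878, minus strand: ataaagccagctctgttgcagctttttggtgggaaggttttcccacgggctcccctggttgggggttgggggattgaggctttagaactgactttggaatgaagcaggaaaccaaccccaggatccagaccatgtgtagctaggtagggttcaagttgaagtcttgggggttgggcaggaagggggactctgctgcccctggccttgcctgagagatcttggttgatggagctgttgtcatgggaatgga
PCGF1 promoter, chr2:74507696-74507945, minus strand: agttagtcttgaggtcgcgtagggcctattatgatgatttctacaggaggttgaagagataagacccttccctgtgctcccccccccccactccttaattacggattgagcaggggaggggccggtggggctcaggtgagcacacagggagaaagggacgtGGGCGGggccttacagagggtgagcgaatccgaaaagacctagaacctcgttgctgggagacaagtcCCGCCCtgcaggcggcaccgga
PCGF3 promoter, chr4:705582-705831, plus strand: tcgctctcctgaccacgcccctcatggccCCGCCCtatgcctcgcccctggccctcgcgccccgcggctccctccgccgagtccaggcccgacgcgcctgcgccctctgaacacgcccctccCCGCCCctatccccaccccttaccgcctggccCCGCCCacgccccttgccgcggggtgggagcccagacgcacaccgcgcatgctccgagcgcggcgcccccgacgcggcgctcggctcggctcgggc
BMI1 promoter, chr10:22320849-22321098, plus strand: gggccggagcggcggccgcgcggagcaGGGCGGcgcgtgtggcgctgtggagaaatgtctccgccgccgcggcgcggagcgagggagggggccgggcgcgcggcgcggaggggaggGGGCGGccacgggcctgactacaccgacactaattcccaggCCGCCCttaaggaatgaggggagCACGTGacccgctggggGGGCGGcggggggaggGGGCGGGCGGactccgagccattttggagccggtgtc
RNF2 promoter, chr1:185045308-185045557, plus strand: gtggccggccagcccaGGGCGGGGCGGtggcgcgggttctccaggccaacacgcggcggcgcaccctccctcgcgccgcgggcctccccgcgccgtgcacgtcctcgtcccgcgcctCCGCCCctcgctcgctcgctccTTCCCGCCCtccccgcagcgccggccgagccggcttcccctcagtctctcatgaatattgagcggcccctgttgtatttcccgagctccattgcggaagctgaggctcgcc

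The motifs were searched on both strands of the whole windows: CCGGAAG (ETS), the NRF1 motif, GGGCGG (SP/KLF), CCAAT (NFY), TTCCCGC (E2F), CACGTG (E box), TGACGTCA (CRE), AAGATGG (YY1), the core of the interferon-stimulated response element and TTCNNNGAA (GAS). GGGCGG, a GC box, occurred at 6 of the 8 genes, all but PCGF2 and PCGF6. Counted by window, it was in 9 of the 12 windows of the 8 genes and in 56.3% of all protein-coding windows. The windows of the 2 upstream PCGF5 starts overlap. All percentages given here are of windows, not of genes. Upstream of BMI1 and of RNF2, 2 of the GC boxes overlap each other. CACGTG occurred at BMI1 alone among the 8 genes (8.34% of all windows), and TTCCCGC at RNF2 alone (8.14%), where it overlaps a GC box. PCGF1 alone had CCGGAAG (12.8%) and AAGATGG (6.05%), neither of which lies wholly within the printed bases. CCAAT was found at PCGF5 only, in the 2 windows that overlap (34.6%). The 2 interferon motifs, NRF1 and CRE were found at none of the 8 (3.17% and 6.79%, 1.5% and 2.26% of all windows).

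**Figure D1:**
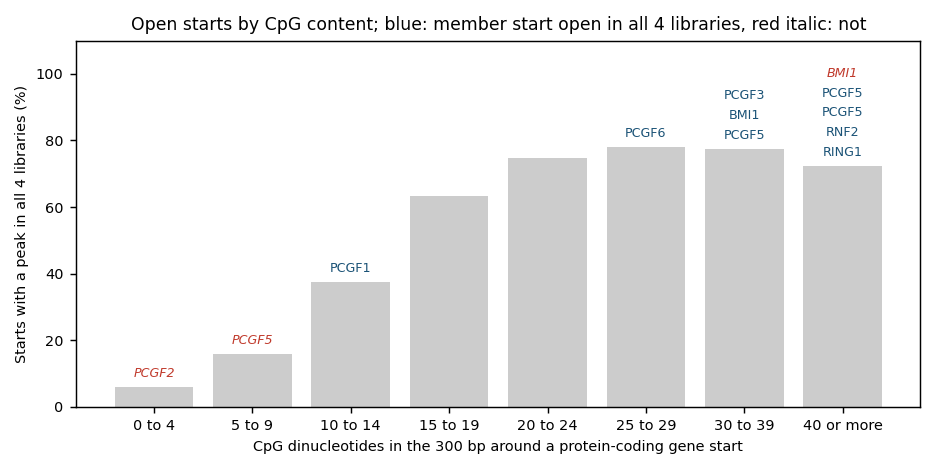
Share of protein-coding gene starts with a peak in all 4 libraries (bars, %) by the number of CpG dinucleotides in the window from 250 bp before to 50 bp after the start, with the 12 listed starts of the 8 genes placed above their class. PCGF2 stands in the class of 0 to 4 CpG, where 5.97% of starts were open, and only the starts in red italics lacked a peak in at least 1 library.

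The ligase genes RING1 and RNF2 had low start peaks. RNF2 (chr1:185045124-185046432) had 2.74 fragments per M with PHF19 overexpression and 2.96 with the empty vector, and 3.36 with IFN PHF19 overexpression against 2.38 with the IFN empty vector. RING1 (chr6:33208061-33208770) had 3.24 with PHF19 overexpression against 3.54 with the empty vector, and 3.91 with IFN PHF19 overexpression against 2.75 with the IFN empty vector. In both genes the IFN PHF19 overexpression library was highest and the IFN empty vector library lowest, and the 95% counting intervals overlapped within each pair. Between 12.4% and 15.7% of the start regions of a library were lower than the RNF2 peak, and between 15.5% and 19.6% lower than the RING1 peak. Their summits lay just before the start, at -74 to -55 bp for RNF2 and -42 to -18 bp for RING1.

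The canonical partner BMI1 also had a low start peak. Its height was 3.68 fragments per M with PHF19 overexpression against 4.57 with the empty vector, and 3.85 with IFN PHF19 overexpression against 2.96 with the IFN empty vector (chr10:22320848-22321583). The empty vector library was thus the highest and the IFN empty vector library the lowest. The start of COMMD3, the gene just upstream, also begins the COMMD3-BMI1 readthrough transcript, and its peak (chr10:22315011-22317213) was taller in every library. The ratio of the COMMD3 to the BMI1 peak was 2.33 (95% interval 1.74 to 3.15) with PHF19 overexpression and 2.41 (1.95 to 2.99) with the empty vector, and 2.25 (1.66 to 3.08) with IFN PHF19 overexpression and 2.62 (2.22 to 3.11) with the IFN empty vector. These intervals overlap among all 4 libraries.

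Of the variant partners, PCGF1 had the tallest start peak and PCGF6 a low one. PCGF1, which pairs with BCOR and KDM2B, had 12.6 fragments per M with PHF19 overexpression against 15.2 with the empty vector, and 14.7 with IFN PHF19 overexpression against 11.3 with the IFN empty vector (chr2:74506761-74508419). In every library at least 85.6% of start regions were lower. PCGF6, the partner in the complex with MGA and L3MBTL2, had 2.96 with PHF19 overexpression against 3.76 with the empty vector, and 4.03 with IFN PHF19 overexpression against 2.84 with the IFN empty vector (chr10:103350137-103351558). It was the one region in the whole PCGF6 window. At PCGF1 and PCGF6 the PHF19 overexpression library was the lower of the unprefixed pair and the higher of the IFN-prefixed pair. The same held at RING1, RNF2, BMI1 and the internal PCGF5 start. The median log2 ratio of all regions shared by a pair ran the same way, at -0.11 and 0.17.

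PCGF5, which together with PCGF3 forms the variant complexes that contain AUTS2, had 2 open starts. The internal one (chr10:91220138-91221433) had 11.7 fragments per M with PHF19 overexpression against 13.3 with the empty vector, and 11.6 with IFN PHF19 overexpression against 10.9 with the IFN empty vector. The upstream one (chr10:91162244-91164318) had 3.9 with PHF19 overexpression against 3.58 with the empty vector, and 3.11 with IFN PHF19 overexpression against 2.72 with the IFN empty vector. The internal start was thus the taller by a wide margin in all 4 libraries. It exceeded the upstream one 3 times with PHF19 overexpression (interval 2.28 to 3.98) and 3.71 times with the empty vector (2.96 to 4.69), and 3.73 times with IFN PHF19 overexpression (2.72 to 5.18) and 4.01 times with the IFN empty vector (3.4 to 4.75). These intervals overlap as well.

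**Figure D2:**
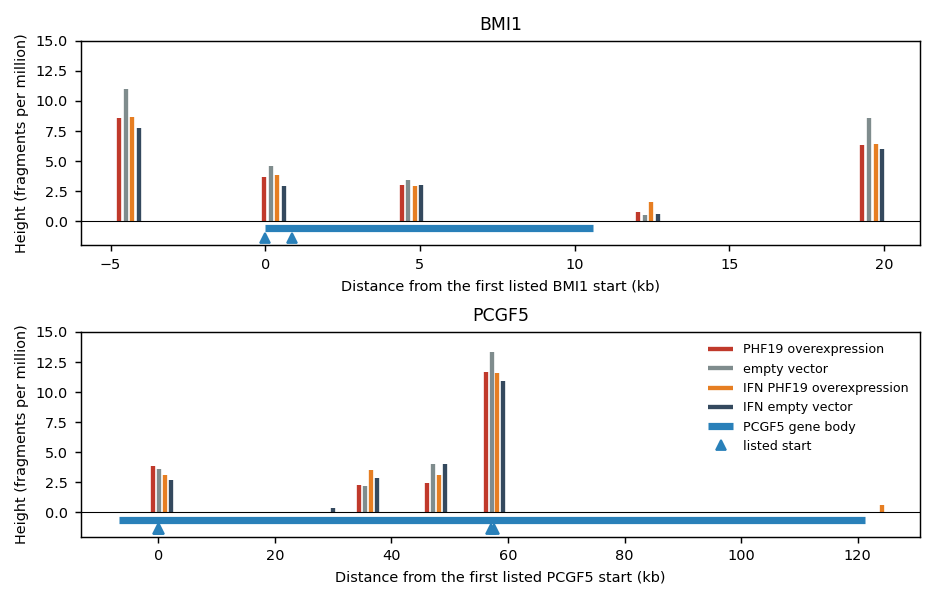
Peak heights (fragments per M) along the windows of BMI1 and PCGF5, drawn at the tallest summit of each region against the distance (kb) from the first listed start, with the 4 libraries side by side, the gene body as a blue bar and listed starts as triangles. The COMMD3 start on the left of the BMI1 panel is taller than the BMI1 start in every library, and the internal start of PCGF5 is about 3 to 4.01 times as tall as the upstream one.

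Averaged over the 4 libraries, the starts ran from PCGF1 (13.4 fragments per M) through the internal PCGF5 start (11.9) and PCGF3 (7.0) to BMI1 (3.76), PCGF6 (3.4), RING1 (3.36), the upstream PCGF5 start (3.33) and RNF2 (2.86). PCGF1 and the internal PCGF5 start had overlapping intervals in every library, and so did each neighbouring pair from BMI1 down to RNF2. The internal PCGF5 start and PCGF3 overlapped with PHF19 overexpression only, and PCGF3 and BMI1 with the empty vector only. The place of PCGF3 differed between libraries: 70.8% of start regions were lower than it with PHF19 overexpression against 31.3% with the empty vector, and 59.6% with IFN PHF19 overexpression against 30.9% with the IFN empty vector. The median start region of a library had between 6.36 and 7.97 fragments per M. The authors' fold enrichment over local background, taken over up to 10000 bp, was low for BMI1 (2.61, 2.75, 2.71 and 2.14 with PHF19 overexpression, the empty vector, IFN PHF19 overexpression and the IFN empty vector) and for RING1 (2.65, 2.52, 3.18 and 2.27 in the same order). At RNF2, which is no taller, it was 8.68, 9.3, 10.0 and 8.9 in that order. BMI1 and RING1 have taller peaks within 10 kb and RNF2 has none, and the part of these in the enrichment was not tested.

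**Figure D3:**
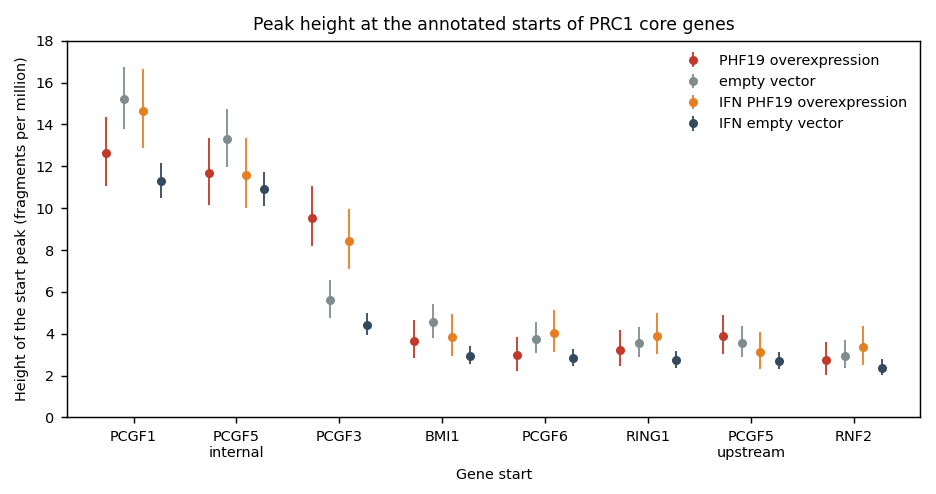
Heights of the 8 open starts (fragments per M) in each library, with 95% counting intervals, ordered by their mean over the 4 libraries. PCGF3 is the one start where both PHF19 overexpression libraries (9.55 and 8.43) lie above both empty vector libraries (5.59 and 4.43) with intervals that do not meet.

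The first question was whether these regions differ in height when PHF19 is overexpressed. It was asked in the unprefixed and in the IFN-prefixed pair, which share no library. Log2 ratios of heights are centred on the median of every region that a pair of libraries shares, which was -0.11 before centring in the unprefixed pair and 0.17 in the IFN-prefixed pair. PCGF3 stood higher with PHF19 in both pairs. Its start peak (chr4:705357-706220) had 9.55 fragments per M with PHF19 overexpression against 5.59 with the empty vector, and 8.43 with IFN PHF19 overexpression against 4.43 with the IFN empty vector. The log2 ratio was 0.88 (95% counting interval 0.56 to 1.21), or 1.84-fold, in the unprefixed pair and 0.76 (0.46 to 1.06), or 1.69-fold, in the IFN-prefixed pair. No other start of the 8 genes had an interval clear of 0 in either pair.

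The other regions of the PCGF3 window found in all libraries stood on the same side of 0. The region at -6256 bp from its start (chr4:699377-700040) had 1.32 fragments per M with PHF19 overexpression against 0.804 with the empty vector, and 1.65 with IFN PHF19 overexpression against 0.865 with the IFN empty vector. Its log2 ratios were 0.82 (-0.07 to 1.73) and 0.76 (0.05 to 1.45). The region inside the gene, 37043 bp past the start (chr4:742287-743707), had 1.81 with PHF19 overexpression against 0.987 with the empty vector, and 1.53 with IFN PHF19 overexpression against 1.14 with the IFN empty vector. Its ratios were 0.99 (0.21 to 1.78) and 0.26 (-0.46 to 0.93), and the interval of the IFN-prefixed pair includes 0.

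The stretch of chromosome 4 around PCGF3 was higher as well. Within 2.5 Mb of its start and outside its window, 73 of 80 shared regions were above 0 in the unprefixed pair and 80 of 85 in the IFN-prefixed pair. Their medians were 0.41 and 0.57. PCGF3 lies near the end of the chromosome, so the first region of the stretch was at -0.58 Mb from its start and most lay downstream. With the local median removed, the PCGF3 start was at 0.46 in the unprefixed and 0.17 in the IFN-prefixed pair. In the stretch with its own window, 11 of 83 shared regions had a ratio above that of the PCGF3 start in the unprefixed pair and 28 of 88 in the IFN-prefixed pair. The share of the stretch in the PCGF3 difference was not tested.

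**Figure D4:**
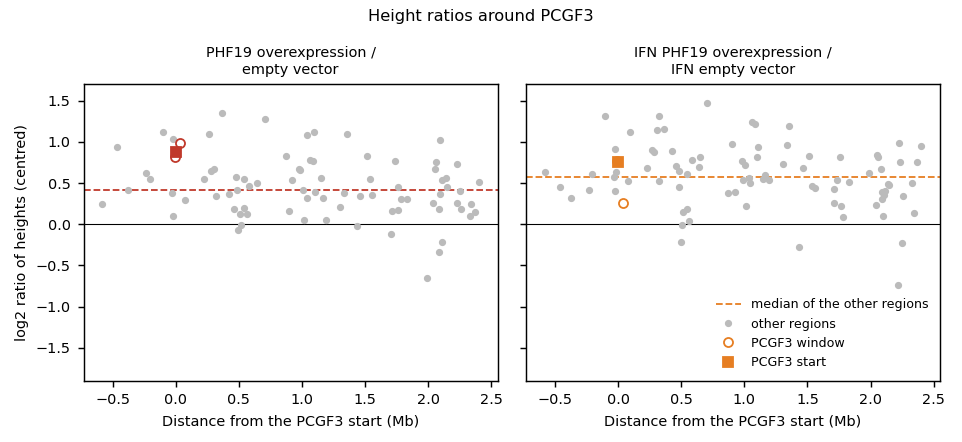
Centred log2 height ratios of the regions within 2.5 Mb of the PCGF3 start against their distance from it (Mb), for PHF19 overexpression over empty vector (left) and the IFN-prefixed pair (right). The dashed median of the other regions lies at 0.41 and 0.57, the PCGF3 start at 0.88 and 0.76.

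Before the local median was removed, the ratios of the other starts were closer to 0 than those of PCGF3 in both pairs. Log2 ratios at the starts in the unprefixed pair ran from -0.23 for PCGF6 to 0.23 for the upstream PCGF5 start when PCGF3 is set aside, with RNF2 at 0.00, RING1 at -0.02, the internal PCGF5 start at -0.08, PCGF1 at -0.16 and BMI1 at -0.20. In the IFN-prefixed pair they ran from -0.08 for the internal PCGF5 start to 0.34 for RING1 and PCGF6, with RNF2 at 0.33 and PCGF1 and BMI1 at 0.21. With the local median removed, RNF2 was at 0.05 in the unprefixed pair and, in a stretch with a median of -0.28, at 0.61 in the IFN-prefixed pair, where 3 of 59 shared regions of the stretch had a higher ratio. In the IFN-prefixed pair RING1 was then at 0.42, PCGF6 at 0.37 and BMI1 at 0.27, also above PCGF3 at 0.17. The upstream PCGF5 start (0.16), the internal one (0.06) and PCGF1 (0.01) were below it. The intervals of all starts but PCGF3 include 0 before that removal, and the difference between the pairs was not tested. The median over the 8 starts was -0.05 in the unprefixed pair and 0.27 in the IFN-prefixed pair, beside -0.07 and 0.00 for all shared start regions.

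Away from the starts, 2 further regions are given in detail. A weak region 616 bp past the 3′ end of BMI1 (chr10:22332322-22333829) had 0.768 fragments per M with PHF19 overexpression against 0.512 with the empty vector, and 1.59 with IFN PHF19 overexpression against 0.622 with the IFN empty vector. Its log2 ratios were 0.70 (-0.48 to 1.88), on 14 fragments in each library, and 1.18 (0.42 to 1.93), on 26 and 41 fragments. The tallest summit of the empty vector library lay 871 bp past the gene end and those of the other libraries 1705 to 1765 bp past it. At a second summit, 1715 bp past the end, the empty vector library had 13 fragments. A region inside PCGF5 (chr10:91210144-91211015), at -9543 bp from the listed start at 91220151, was the one with a lower height in both pairs by intervals clear of 0. It had 2.41 fragments per M with PHF19 overexpression against 4.06 with the empty vector, and 3.11 with IFN PHF19 overexpression against 4.05 with the IFN empty vector. Its log2 ratios were -0.64 (-1.18 to -0.12) and -0.55 (-1.01 to -0.11), with local medians of -0.09 and -0.14. Within 2.5 Mb, 71 of 75 shared regions had a higher ratio in the unprefixed pair and 63 of 78 in the IFN-prefixed pair. The share of all regions with intervals below 0 in both pairs was not counted, so this region cannot be called unusual. Of all regions in 4 libraries, 5.36% were at least 1.5-fold lower in both pairs.

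The remaining windows held mostly starts of neighbouring genes. The start of TLX2, a homeobox gene of the enteric nervous system in the PCGF1 window, had 2.08 fragments per M with PHF19 overexpression against 1.46 with the empty vector, and 2.69 with IFN PHF19 overexpression against 1.62 with the IFN empty vector. Its log2 ratios were 0.62 (-0.06 to 1.30) and 0.56 (0.02 to 1.08), in a neighbourhood with medians of 0.19 and 0.20. In the PCGF2 window, CISD3 was at 0.35 (0.03 to 0.67) in the unprefixed and -0.06 (-0.37 to 0.23) in the IFN-prefixed pair, and PSMB3 at -0.31 (-0.61 to -0.02) and -0.25 (-0.52 to 0.01). Beside RING1, the region of RXRB and SLC39A7 was at -0.25 and 0.20 and that of HSD17B8 at -0.25 and -0.12. Around BMI1, COMMD3 was at -0.25 and -0.01, the region inside the gene at -0.08 and -0.20 and the one 8363 bp past its end at -0.33 and -0.07. The region in PCGF5 at the start of an uncharacterised transcript was at 0.16 and 0.15. None of these intervals was clear of 0 in both pairs.

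In counts, 5 of the 21 shared regions were at least 1.5-fold higher with PHF19 in the unprefixed pair, where 12.8% of all shared regions were. They were the 3 of PCGF3, TLX2 and the region past BMI1, and with the local median removed 1 of 21 was. In the IFN-prefixed pair 3 of 21 were, against 11.8% of all. The same 3 regions, the PCGF3 start, its upstream region and the one past BMI1, passed in both pairs, where 4.16% of all regions in 4 libraries did, and 0 were lower in both (5.36%). With the local median removed, the region past BMI1 was at 0.81 and 1.24. The PCGF3 start was then at 0.46 and 0.17 and its upstream region at 0.40 and 0.18, short of 1.5-fold. In the IFN-prefixed pair 2 of 21 passed after that removal, the region past BMI1 and the RNF2 start at 0.61. At least 1.5-fold lower were 1 of 21 in the unprefixed pair (9.16% of all), the region in PCGF5, and 0 of 21 in the IFN-prefixed pair (10.9%). At the starts, 1 of 8 was at least 1.5-fold higher in each pair, PCGF3, beside 3.9% and 3.99% of all shared start regions. The median log2 ratio over the 21 regions was -0.08 in the unprefixed pair, which turned to 0.03 with the local median removed and 0.01 with the median of regions of like height removed, and 0.20 in the IFN-prefixed pair.

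**Figure D5:**
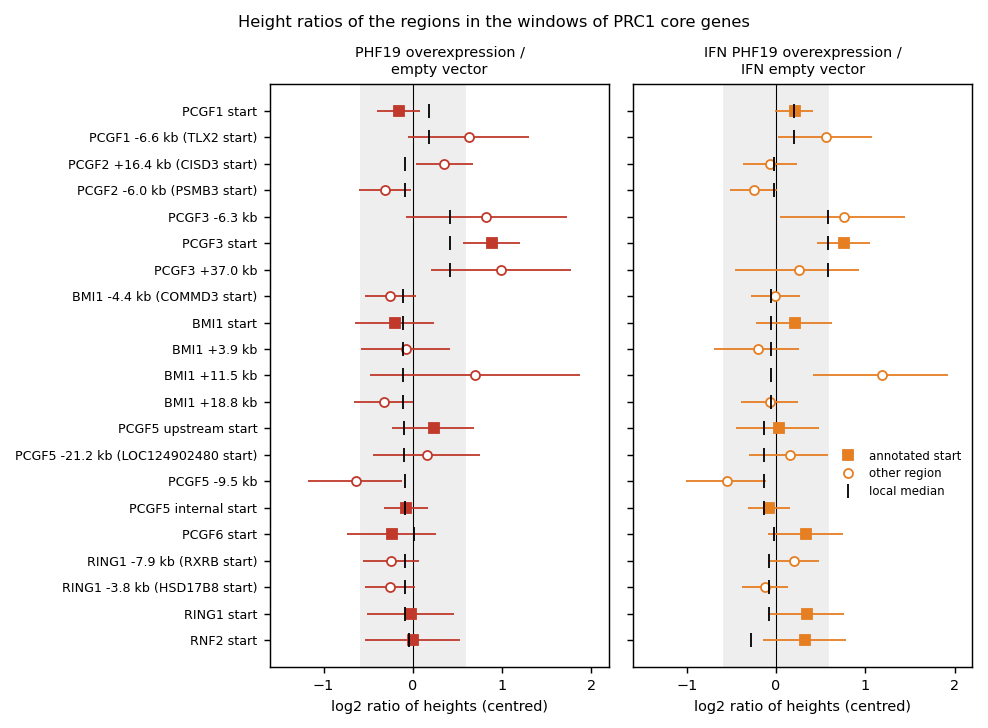
Centred log2 height ratios with 95% counting intervals for the 21 regions with a peak in all 4 libraries, in the unprefixed (left) and the IFN-prefixed pair (right), labelled by gene and distance (kb) from the nearest listed start. Squares are listed starts of the 8 genes, black ticks the median of the regions within 2.5 Mb, and the grey band marks ratios under 1.5-fold. The PCGF3 start lies beyond the band in both pairs at 0.88 and 0.76.

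The 4 regions with a peak in a single library were all weak. PHF19 overexpression alone had a peak of 8 fragments (chr4:774085-774369) and IFN PHF19 overexpression alone one of 10 fragments (chr10:91286591-91287093), each past the end of PCGF3 or PCGF5. The IFN empty vector library, the deepest, alone had 17 fragments inside PCGF3 (chr4:764128-764521) and 24 inside PCGF5 (chr10:91191269-91191597). Of the regions with a peak in one library of a pair, 1 of 22 with PHF19 overexpression (11.9% of all such regions) and 0 of 21 with the empty vector (21.2%) had none in the other. In the IFN-prefixed pair these were 1 of 22 with IFN PHF19 overexpression (4.53% of all) and 2 of 23 with the IFN empty vector (38.2%). The 4 single-library regions lay on no listed start, as did 10 of the 25 regions in all. Here and below, such shares are over regions of every kind, and regions of like kind were not counted apart. No region of these genes was one-sided in the same direction in both pairs.

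The second question was how the IFN-prefixed libraries differ from the others with the same vector. These comparisons use the same 4 libraries as those above. The IFN empty vector library was the deepest and the one with another project folder, and the part of either in these differences was not tested. With the empty vector, all 8 starts were lower in the IFN-prefixed library, from -0.54 to -0.20 on the log2 scale, with a median of -0.30, beside -0.20 for all shared start regions. The typical start region thus also lay below 0 with this centring, and the share of start regions below 0 was not counted. BMI1 was the lowest, at -0.54 (-0.87 to -0.21), on 195 fragments with the IFN empty vector and 125 with the empty vector in libraries of 65.9 and 27.4 M. In its window COMMD3 was at -0.42 (-0.63 to -0.21) and the region 8363 bp past the gene at -0.43 (-0.67 to -0.19), while the region inside the gene was at -0.11 (-0.47 to 0.26) and the one 616 bp past it at 0.37 (-0.54 to 1.36). The stretch had a median of 0.03. PCGF1 was at -0.34 (-0.52 to -0.17) and the internal PCGF5 start at -0.20 (-0.39 to -0.02). Beside RING1, the region of RXRB and SLC39A7 was at -0.39 (-0.62 to -0.16) and that of HSD17B8 at -0.28 (-0.48 to -0.08). In all, 7 of the 21 regions had an interval below 0, each of them given here. The share of all shared regions with such an interval was not counted, so the 7 cannot be read as particular to these genes. With the PHF19 vector the starts ran from -0.44 for the upstream PCGF5 start to 0.33 for PCGF6, with BMI1 at -0.05 (-0.57 to 0.47), and no interval was clear of 0.

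With the empty vector 0 of 21 regions were at least 1.5-fold higher (6.21% of all) and 0 lower (1.81%) in the IFN-prefixed library, and of the starts 0 of 8 were higher (0.521% of all start regions) and 0 lower (1.18%). With the PHF19 vector 1 of 21 was higher (6.65% of all), the region past BMI1 at 0.93 (-0.06 to 1.98), and 0 were lower (3.64%), with 0 of 8 starts higher (0.676%) and 0 lower (1.28%). Both ways of comparing gave 0 regions higher (0.792%) and 0 lower (0.0532%) in common. With the empty vector, 2 of 23 regions had a peak in the IFN-prefixed library alone (31.6% of all) and 0 of 21 in the other alone (2.05%), and with the PHF19 vector 1 of 22 in each (15.5% and 12.4%). The median over the 21 regions was -0.23 with the empty vector (-0.02 when centred on gene starts) and 0.03 with the PHF19 vector, the second turning to -0.0012 among peaks with a q of 1e-05 or less. Only the region at the start of the uncharacterised transcript in PCGF5 had a ratio above 0 with an interval clear of it, 0.43 (0.01 to 0.88) with the empty vector, and it was at 0.51 (-0.09 to 1.11) with the PHF19 vector.

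Other subunits of the Polycomb system were read at their own starts. Of 32 further PRC1 genes 28 had a listed start, and 24 of these were covered by a peak in all 4 libraries, where 58.5% of protein-coding genes with a listed start were. Among the 25 with a start region shared by a pair, 1 was at least 1.5-fold higher with PHF19 in each pair (3.9% and 3.99% of all start regions) and 0 were lower (2.36% in both). The gene was PHC1, a polyhomeotic subunit of canonical PRC1, with 5.38 fragments per M with PHF19 overexpression against 3.29 with the empty vector, and 5.43 with IFN PHF19 overexpression against 3.11 with the IFN empty vector. Its log2 ratios were 0.82 (0.39 to 1.25) and 0.64 (0.26 to 1.0), where the surrounding regions had medians of 0.29 and 0.31. Of 12 PRC2 genes 11 had a listed start and all 11 were covered in all libraries (58.5% of all), with 1 of 11 at least 1.5-fold higher in each pair (3.9% and 3.99% of all start regions) and 0 lower (2.36% in both). It was AEBP2, a cofactor of PRC2, at 0.73 (0.30 to 1.15) and 0.79 (0.40 to 1.17) in a stretch at 0.57 and 0.30. MTF2, a Polycomb-like protein related to PHF19, was at -0.25 (-0.84 to 0.33) and -0.23 (-0.80 to 0.31).

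Of the genes around the deubiquitinase that removes the PRC1 mark, 4 of 5 listed starts were covered in all libraries (58.5% of all). Of these 4, 1 was at least 1.5-fold higher in the unprefixed pair (3.9% of all start regions) and 0 in the IFN-prefixed pair (3.99%). FOXK1, a forkhead factor that binds it, was at 0.70 (0.20 to 1.20) and 0.30 (-0.14 to 0.73), and ASXL1, its activating partner, at -0.38 (-0.63 to -0.12) and -0.22 (-0.48 to 0.02). CSNK2B, the regulatory subunit of casein kinase in variant PRC1, was at -0.34 (-0.63 to -0.06) and -0.23 (-0.50 to 0.02). The median over the further PRC1 starts was -0.04 in the unprefixed and -0.01 in the IFN-prefixed pair, and over PRC2 -0.17 and -0.11. Between the PHF19 vector libraries, CBX7, a chromobox reader, and RYBP, a subunit of variant PRC1, were lower in the IFN-prefixed one, at -0.64 and -0.65 (2 of 25, against 1.28% of all start regions). Both were named after their values were seen.

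Over the 4 libraries, the starts with the widest range of height were those of PCGF3 and BMI1, at 1.11 and 0.63 on the log2 scale. By the distance between centred log2 heights in 4 libraries, the start regions most like PCGF3 among 8819 were those of GPR161 (0.0856), MDGA1 (0.106) and PLCXD3 (0.114), on other chromosomes, and 28 lay within a distance of 0.2. For BMI1 they were PDCD4 (0.0167), HNRNPLL (0.0193) and NR1D2 (0.0227), but 1098 regions lay within 0.2 of it.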

How the data were processed

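MACS2 2.1.2 was run by the authors on each library alone, on paired fragments, with no control, a q of 0.01 and duplicates kept, per the file headers. Per the submitters' processing notes, hg38, DiffBind, Trimmomatic 0.38 and bcl2fastq 2.17 were used as well. Which aligner and read filters were used, and whether reads were shifted for Tn5, was not given in the sources used here. In the deposited lists the pileup is the signal, whole fragments at a summit, not scaled. The -log10 of the q-value and of the p-value, as deposited, rank peaks within a list, and the deposited fold enrichment is a ratio to local background, the authors' value for each peak.

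Summits were collapsed to 1 peak with the tallest as its height, peaks on chromosomes 1 to 22 and X that overlap by 1 bp were merged, and heights were divided by the header's fragments in M. Height ratios carry exact 95% intervals for a ratio of counts; duplicates were kept, so these cover counting error only. Gene bodies and starts came from RefSeq tables (GRCh38.p14), which do not list every start. Overlaps equalled those of bedtools 2.31.1, and the interval code was run on simulated independent counts (scipy 1.17.1). The simulation has no duplicates and no choice of a tallest summit, so it cannot show how well the intervals hold for these data. Groups came from the sample titles.

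The members, lists, motifs, the 1.5-fold rule and the alternatives were chosen with earlier results of these data known. The naming rule took each gene's start region, its tallest other region and any region past 1.5-fold in both comparisons; the remaining regions of the 8 genes are given in the PHF19 comparisons. It also took, of the other Polycomb genes, the 6 with the largest smaller ratio of the PHF19 comparisons in 1 direction. Alternatives were other centrings, no flanks, a stricter q, 50% overlap, equal list lengths and a 2-fold rule. Medians of lists are descriptions, and no set was tested.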

Additional observations from a re-analysis of the deposited data

How the results depend on the processing

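No replicate block was fitted, as the titles number no replicates and each group holds 1 library. A fit of vector and IFN prefix together over the 4 libraries, which would pair the libraries by prefix, was not run. Without centring, all regions shift by -0.11, 0.17, -0.09 and 0.11 (PHF19 in the unprefixed and the IFN-prefixed pair, IFN prefix with the empty and with the PHF19 vector), and the members' median in the IFN-prefixed PHF19 comparison became 0.37. Centring on gene starts moves all regions by 0.20 in the IFN empty vector comparison, where the members' median became -0.02.

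Of the 5 regions at least 1.5-fold higher with PHF19 in the unprefixed pair, the count became 1 with the local median removed, 3 with the median of regions of like height removed, 2 without the flanks and 0 at 2-fold. The 1 lower became 0 when centred on gene starts, with the local median removed and at 2-fold. In the IFN-prefixed pair the 3 higher became 2 with the local median removed, 1 without the flanks, 1 at 2-fold and 4 without centring. Counts of one-sided regions also depended on settings. For PHF19 overexpression 1 became 0 without the flanks and 0 at a q of 1e-05, and for the empty vector 0 became 1 at that q. For IFN PHF19 overexpression 1 became 0 without the flanks, 0 at that q and 2 with lists of equal length, and for the IFN empty vector 2 became 1 at that q and 0 with equal lists. The cause was not tested beyond what each setting removes. Of the start ratios in the PHF19 comparisons, only those of PCGF3 left their interval, at 0.46 and 0.17 with the local median removed. Depth limits the weak regions most, such as the one past BMI1 with 14 fragments in each unprefixed library.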
